A study of Mus musculus with 46 samples.

Results

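Ribosomal protein genes were followed in 46 single cells picked from the mouse cochlea. The members were chosen by symbol alone: every listed gene whose symbol begins with Rpl or Rps followed by a digit, p, a or x, without symbols holding "-ps" and without the Rps6k kinases. This gave 88 of 29871 listed genes. Of the 88, 77 encode canonical ribosomal proteins (31 of the small subunit, 43 of the large subunit and 3 of the stalk). The other 11 carry a matching symbol but are paralogs, gene copies or an unrelated gene.

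The mice were C57BL/6 at postnatal day 10, with the genotype Dio2creERt2:Ai6, and were heterozygous for the Dio2 allele. Dio2 encodes type 2 deiodinase, which activates thyroid hormone. The allele expresses a tamoxifen-inducible Cre recombinase under Dio2 control. Ai6 is a reporter that becomes fluorescent in a cell where Cre has acted and stays so in its descendants, so fluorescence marks past as well as present Dio2 activity. All cells shared this genotype, age and tissue, and every one was picked for its fluorescence with a suction pipette after papain treatment. The question of the series is which cochlear cell types carry Dio2. All cells carry the same label and no animal is named for any of them. They therefore stand for 1 sample, cells are not replicates, and the SDs below describe the spread between cells without a test.

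A ribosome is built from ribosomal RNA and one copy each of most ribosomal proteins. The small subunit reads the mRNA, the large subunit joins amino acids, and the acidic stalk proteins Rplp0, Rplp1 and Rplp2 recruit translation factors. The mRNAs of these proteins typically begin with a run of pyrimidines (C and T in the gene), through which growth signals control their translation, and the genome holds many processed pseudogenes, which are inserted copies of these mRNAs. In bone-forming cells and fibrocytes, which secrete large amounts of matrix, ribosomes bound to the endoplasmic reticulum make most of the secreted protein.

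A pair of sequence features bears on the values below: the gene starts and the pseudogene copies. Starts were taken from RefSeq (GRCm38.p6), where 67 of the 88 members had an entry. The windows that follow hold 15 bases before the annotated start and 15 from it on, with the longest pyrimidine run in capitals, for members whose values are described further on.
Rps9 (chr7:3704026-3704055, + strand): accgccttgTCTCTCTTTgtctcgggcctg
Rps15a (chr7:118116133-118116162, - strand): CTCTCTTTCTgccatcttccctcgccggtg
Rps25 (chr9:44407699-44407728, + strand): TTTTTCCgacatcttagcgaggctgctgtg
Rpl7a (chr2:26910792-26910821, + strand): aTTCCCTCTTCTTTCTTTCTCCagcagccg
Rpl12 (chr2:32961697-32961726, + strand): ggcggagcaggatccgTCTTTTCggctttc
Rpl14 (chr9:120571502-120571531, + strand): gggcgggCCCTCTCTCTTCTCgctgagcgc
Rpl35 (chr2:39005117-39005146, - strand): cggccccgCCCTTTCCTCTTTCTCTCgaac
Rplp2 (chr7:141447636-141447665, + strand): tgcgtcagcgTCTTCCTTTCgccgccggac
Rpl7l1 (chr17:46782642-46782671, - strand): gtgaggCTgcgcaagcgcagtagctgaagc
Rps19bp1 (chr15:80264292-80264321, - strand): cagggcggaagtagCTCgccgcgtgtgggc
The canonical genes shown here carried runs of 7 to 21 pyrimidines at the start, and Rpl7l1 and Rps19bp1 had runs of 2 and 3. These are examples and do not divide the members by kind: within the same window the canonical Rplp0 had a longest run of 5, and Rpl26 and Rpl41 of 3, while the non-canonical Rpl22l1 and Rpl32l had runs of 10 and Rps27l of 9 at one of its annotated starts.

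Over all members with a start, 39 of 67 (58.2%) had a run of at least 7 pyrimidines on the sense strand in the 50 bases around the start, against 32.7% of 27025 genes in the same table. Among the canonical members it was 35 of 57. The letters CCGGAAG, the core of the binding site of ETS factors, lay on either strand of the 300 bases around the start in 26 of 67 members (38.8%) and in 9.93% of all genes. The letters AANATGGC, the core of the YY1 site, lay there in 13 of 67 members (19.4%) and in 6.96% of all genes. These matches describe the letters in the windows and not binding.

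The second feature is the number of near-identical copies. In the GENCODE M21 annotation (GRCm38), 76 of the 77 canonical members shared at least 1 stretch of 50 bases with an annotated pseudogene. For 29 of 77 members no 50-base stretch of the coding sequence was unique to the gene, and the median unique share was 6.95%. Rpl7a shared a stretch with 121 pseudogenes and Rpl29 with 81. How the authors' counting treated reads that match several places is not given in the sources used here, so the split of reads between such copies is uncertain. All comparisons of level between genes carry that limit.

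The pairs below show how close such copies are. Each line is the same 60 bases of the coding sequence in the member and in its most abundant pseudogene, with the differing bases in capitals, taken where the pair differs most.
Rps25 (gene at chr9:44407714-44410406): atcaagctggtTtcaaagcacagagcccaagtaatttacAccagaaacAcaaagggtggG
Gm6988 (chr12:110315927-110316427): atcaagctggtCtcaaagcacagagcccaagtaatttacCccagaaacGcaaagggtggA
Rpl14 (gene at chr9:120571517-120574653): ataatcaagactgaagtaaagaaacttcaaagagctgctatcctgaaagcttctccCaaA
Rpl14-ps1 (chr7:45324958-45325651): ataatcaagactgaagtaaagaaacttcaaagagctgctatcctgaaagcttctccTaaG
Rpl29 (gene at chr9:106428889-106431568): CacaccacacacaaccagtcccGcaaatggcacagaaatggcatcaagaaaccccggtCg
Gm8580 (chr10:93665244-93665854): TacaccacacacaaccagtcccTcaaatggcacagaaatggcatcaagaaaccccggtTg
Rps25 and Gm6988 were identical at 97.6% of 375 aligned bases, Rpl14 and Rpl14-ps1 at 99.4% of 648, and Rpl29 and Gm8580 at 97.1% of 448. Across the 11 members whose pseudogene rows together exceeded the member itself, identity to the most abundant copy ran from 97.1% to 99.7%.

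In the deposited table these copies held reads of their own. Values are CPM, reads per 1000000 reads of a cell. Rps25, a small subunit protein, averaged 3.74 CPM, while Gm6988 averaged 38.4 CPM. Rpl14, of the large subunit, averaged 46.4 CPM against 142 CPM for Rpl14-ps1. Rpl29 averaged 0.0274 CPM and reached 1 CPM in no cell, against 4.38 CPM for Gm8580. Rpl7 and Rpl13a, both of the large subunit, averaged 67.9 and 73.6 CPM, against 131 CPM for Gm12174 and 131 CPM for Gm11478. In all, 49 pseudogene rows shared a 50-base stretch with 35 members. Together they took 0.0181% to 0.253% of a cell's reads, with a median of 0.0644%. Their summed share and that of the members rose and fell together over the 46 cells (Spearman's rho 0.93, a description over cells that share the aligner and the copies).

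The depth per cell was 2522853 to 10350249 reads in the listed genes, recovered as whole reads from the deposited values. Of these, 7072 to 50733 reads per cell fell on members. Cells were sorted by the marker thresholds of the member rule. Ibsp (bone sialoprotein) at 1000 CPM or more gave 12 Ibsp-high cells, Otos (otospiralin, a fibrocyte gene) at 1000 CPM or more gave 9 Otos-high cells, and C1qb (a complement gene of macrophages) at 500 CPM or more gave 4 C1qb-high cells. The remaining 21 cells formed the reference, and 0 cells passed more than 1 threshold. The nearest cells above and below each threshold were at 7618 and 107 CPM for Ibsp, 1213 and 112 CPM for Otos, and 3048 and 148 CPM for C1qb. The Otos-high cell nearest its threshold, cell 31, lay just above it and had the highest member share of its class, 0.636%. A median of 100 CPM or more was found for 9 of 9 osteoblast markers in Ibsp-high cells and 7 of 8 cochlear fibrocyte markers in Otos-high cells. In C1qb-high cells it was found for 9 of 9 macrophage markers. Each list includes the gene that defined its class (Ibsp, Otos or C1qb), and that gene passed by the rule itself. The summed macrophage markers, C1qb included, ran from 15132 to 28071 CPM in C1qb-high cells and up to 249 CPM in the remaining cells. The summed osteoblast markers ran from 11613 to 171465 CPM in Ibsp-high cells and up to 1982 CPM in the remaining cells. The fibrocyte markers overlapped: their sum was 32336 to 169336 CPM in Otos-high cells and 132 to 118020 CPM in the remaining cells. In Ibsp-high and in remaining cells, 3 of 8 fibrocyte markers had a median of 100 CPM or more. Otos-high cells also reached it for 4 of 6 chondrocyte and 3 of 6 general fibroblast markers. The same counts were 3 and 2 in remaining, 1 and 2 in Ibsp-high, and 0 and 0 in C1qb-high cells. The classes were defined from the data and are not groups of the study, and they follow the numbering of the cells, so that any handling in that order and the class cannot be told apart.

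Ribosomal protein genes took a small and variable part of each cell's reads as counted. The sum holds only reads that the authors' counting assigned to the members. Its size therefore also depends on the unknown treatment of reads that match several places. Over all 46 cells the summed share was 0.137% at the lowest, 0.381% at the median and 1.29% at the highest. In Ibsp-high cells it ran from 0.231% over a median of 0.470% to 1.29% (SD 0.324, n = 12 cells). In Otos-high cells it ran from 0.247% over a median of 0.356% to 0.636% (SD 0.147, n = 9 cells). In the remaining cells it ran from 0.198% over a median of 0.377% to 0.740% (SD 0.142, n = 21 cells). The 4 C1qb-high cells had 0.193%, 0.137%, 0.173% and 0.408% in cells 43 to 46 (SD 0.123). Of these, 3 lay below the lowest remaining cell, and cell 46 lay above the median of the remaining cells. Counting error was small beside this spread: the exact Clopper-Pearson 95% interval was 1.28% to 1.30% for the highest cell (cell 5) and 0.134% to 0.140% for the lowest (cell 44). The interval covers counting error only, since reads without molecular identifiers are not independent molecules.

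**Figure D1:**
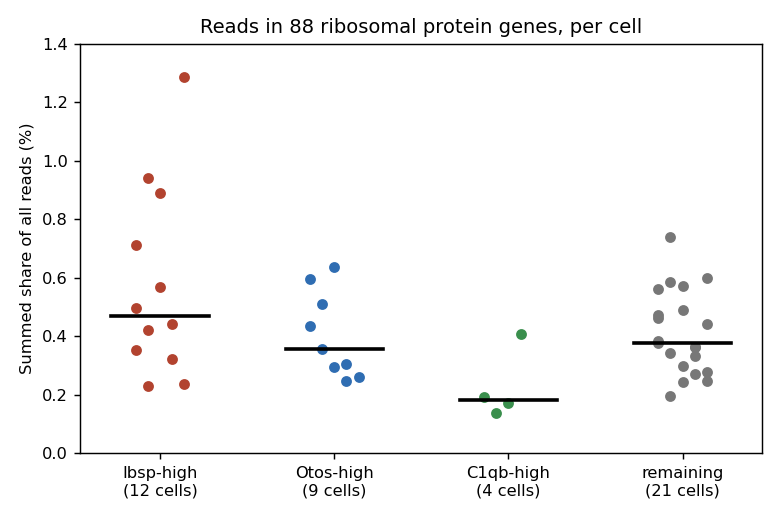
Summed share of reads in the 88 ribosomal protein genes (%, vertical axis) for each cell, by marker class. Points are cells and bars are medians. The Ibsp-high cells reach 1.29%, 3 of the 4 C1qb-high cells lie below every remaining cell, and all classes overlap.

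On the log2 scale the mean share of C1qb-high cells was 0.90 lower than that of the remaining cells, a ratio of 0.535, against a pooled SD of 0.53. Without cell 46 the difference was -1.23. The Ibsp-high cells were 0.37 higher, a ratio of 1.29, against a pooled SD of 0.62, so this difference was smaller than the spread between cells. Of the Ibsp-high cells, 3 lay above the highest remaining cell and 8 of 12 above the median of the remaining cells. The Otos-high cells differed by -0.02, a ratio of 0.984, with a pooled SD of 0.51. Its sign was not stable: it was 0.20 when shares were taken of the listed genes without mitochondrial genes and the top 50 other genes, and -0.15 with doubled thresholds.

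The summed share was set beside measures of each library. Over 46 cells, Spearman's rho with the listed reads was 0.02, with the number of genes at 1 CPM or more 0.02, and with the share of mitochondrial reads 0.34. Mitochondrial genes here and elsewhere in the text are COX1, COX2, COX3, ND3, ND4L, ND5 and ND6 only, so this is a part of all mitochondrial reads. Within the 12 Ibsp-high cells the share was higher in shallower cells (rho -0.60) and in cells with more mitochondrial reads (rho 0.72). With the listed reads rho was -0.45 in Otos-high cells but 0.43 in the remaining cells. With mitochondrial reads it was 0.43 and 0.15. Cell 5, the highest in share, was the shallowest of all cells and had 2.53% mitochondrial reads, against a median of 1.18% in its class. The part of depth and RNA quality in the Ibsp-high values was not tested. The listed reads of the C1qb-high cells, 3910005 to 4788550, lay within the range of the remaining cells. Their median, 4331870, was below that of the remaining cells, 5333920, and the part of depth in the C1qb-high difference was not tested.

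Most members were found in most cells. At 1 CPM or more, 27 members were seen in all 46 cells, 38 in 40 to 45 cells, 18 in 10 to 39 cells and 5 in fewer than 10 cells. Those 5 (Rpl29, Rpl21, Rpl3l, Rpl10l and Rpl39l) missed the low-value filter of 1 CPM in at least 20% of cells, which 83 members passed. Per cell, 63 to 84 members reached 1 CPM, with medians of 79 in Ibsp-high, 77 in Otos-high, 67.5 in C1qb-high and 75 in remaining cells. The 10 most abundant members held 39% of all member reads.

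**Figure D2:**
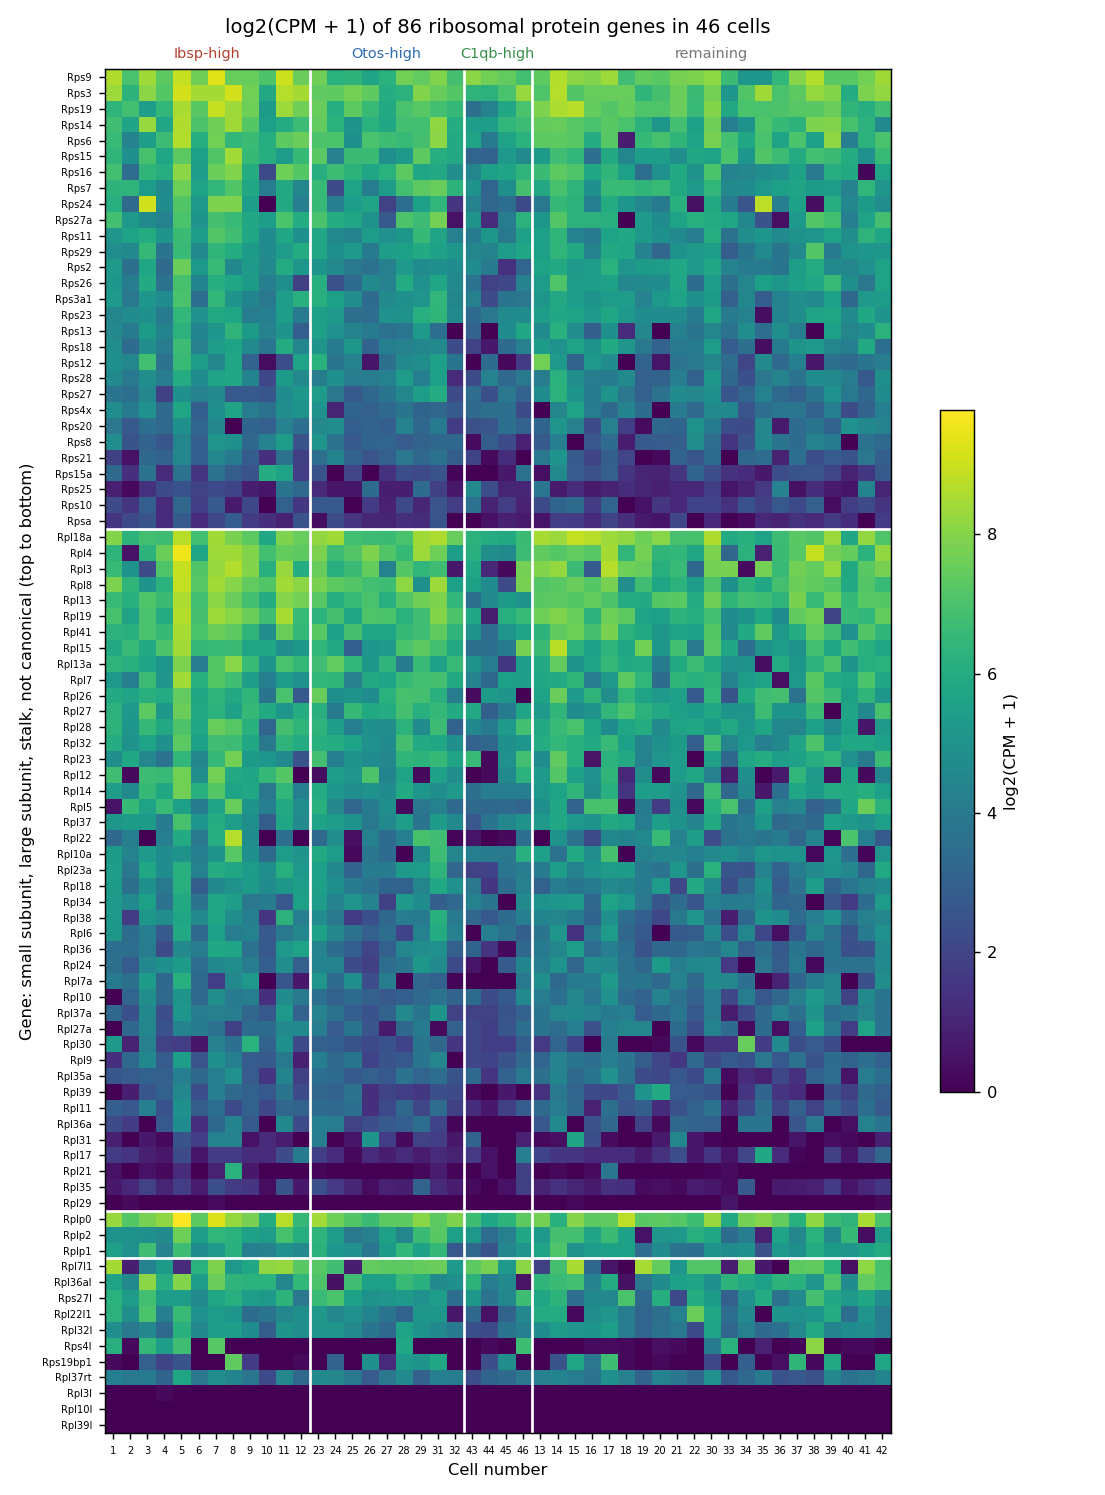
log2(CPM + 1) of 86 of the 88 members (rows, by role and then by mean level) in the 46 cells (columns, by marker class, with cell numbers). Cell 5 is bright in nearly all canonical rows, the C1qb-high columns 43 to 45 are darker than column 46, and the rows of Rpl7l1, Rps4l and Rps19bp1 switch between high and near 0 from cell to cell.

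Levels between genes were compared per kilobase of transcript. The highest were Rps9 with 284 CPM per kb, Rps19 with 247, Rpl41 with 234 and Rps14 with 205. Rps9, Rps19 and Rps14 are small subunit proteins, and Rpl41 is a very short peptide of the large subunit. The lowest canonical members were Rpl29 with 0.0469 CPM per kb, Rpsa with 1.12, Rpl35 with 1.56 and Rpl21 with 2.35. Rpsa, the small subunit protein also known as the laminin receptor, and the large subunit proteins Rpl29, Rpl35 and Rpl21 are thus listed far below proteins that the ribosome holds in equal number. The 90th percentile of level per kb was 20.1 times the 10th over the 77 canonical members, and 17.6 times per kb of coding sequence.

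The level per kb of coding sequence moved with the number of copies. Spearman's rho over 77 genes was -0.40 with the number of pseudogenes sharing a 50-base stretch and 0.24 with the unique share of the coding sequence, as descriptions over genes, which are not independent. The median was 153 CPM per kb of coding sequence in the 10 members with more than 50% unique sequence, 49.1 in the 38 members above 0 and up to 50%, and 75.8 in the 29 members with none. The order was therefore not a steady one. Rps9, with 57.0% unique coding sequence and 1 such pseudogene, was among the high ones, while Rpl41 was high with no unique stretch in its coding sequence. That coding sequence is only 75 bases of a 437-base transcript, which raises its level per kb of coding sequence. Over the whole transcript 46.9% of the stretches of Rpl41 were unique, and 3 pseudogenes shared one. The part of multiply matching reads in these levels was not tested.

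**Figure D3:**
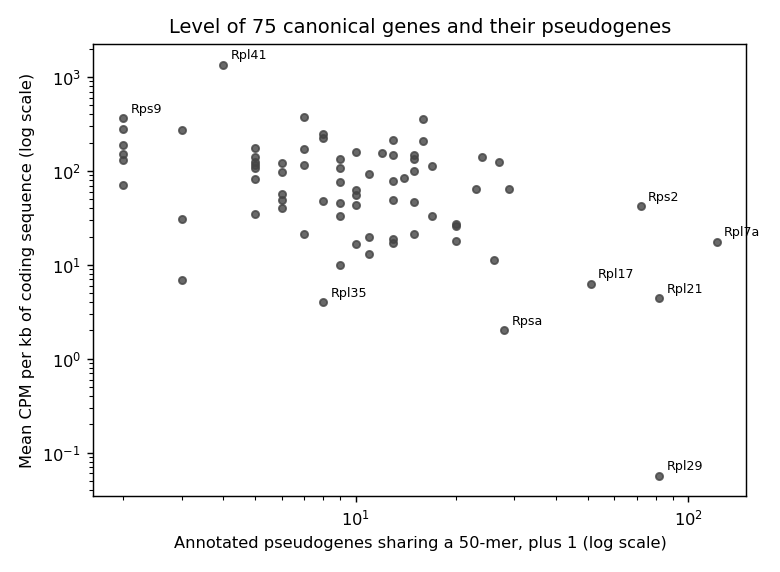
Mean CPM per kb of coding sequence (log axis) against the number of annotated pseudogenes sharing a 50-base stretch, plus 1 (log axis), for 75 of the 77 canonical members. Points are genes: Rps9 sits at the upper left, Rpl29, Rpl21 and Rpl17 at the lower right.

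Members were compared between classes by the difference of mean log2(CPM + 1), with a size of at least 1 counted as a difference. This scale understates differences of low genes, and with 1 sample no test goes with it. In C1qb-high cells 38 of the 83 members that passed the filter were lower than in the remaining cells by this rule, where 37.3% of all 8739 genes tested were lower. One member was higher, where 24.6% of all genes were. The median member difference was -0.91 against -0.39 over all genes, and 72 of 83 members were below 0. When each cell was scaled to the same member sum, 15 members were lower and 6 higher. This scaling shifts all members of a cell alike. Leaving out any 1 of the 4 cells gave 30 to 50 members lower and 2 or 3 higher.

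In Ibsp-high cells 5 of 83 members were higher (22.7% of all genes) and 0 were lower (17.8% of all genes). Their median difference was 0.48 against 0.13 over all genes, and 74 of 83 were above 0. In Otos-high cells 1 of 83 was higher (19.5% of all genes) and 0 were lower (19.7% of all genes), with a median of 0.13 against -0.02. The member differences were thus small and mostly of one sign in Ibsp-high cells, and no difference of these shares from the background was tested. All 3 comparisons share the 21 remaining cells.

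**Figure D4:**
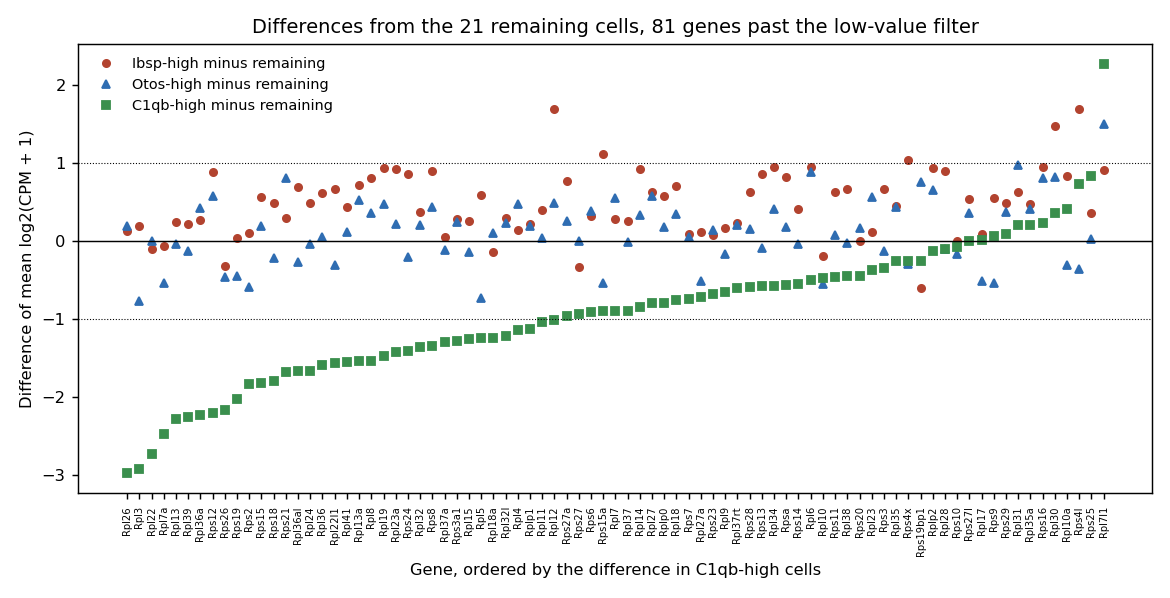
Difference of mean log2(CPM + 1) from the 21 remaining cells for 81 of the 83 members past the filter, ordered by the difference in C1qb-high cells. Circles, triangles and squares stand for Ibsp-high, Otos-high and C1qb-high cells, and dotted lines mark the size of 1. Of the squares 36 lie at or below -1, and Rpl7l1 is at the top of both the squares and the triangles.

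By role, the small subunit had 12 of 31 members lower in C1qb-high cells, with a median of -0.91. The count lay near the share of all genes lower there, 37.3%. Rps9 was at 111 to 269 CPM in these 4 cells and at 33.8 to 399 CPM in the remaining cells, a difference of 0.06. Rps19, whose protein is needed for small subunit maturation, was at 11.2 to 123 CPM against 58.9 to 424 CPM, a difference of -2.03. Rps27a, which is made as a fusion with ubiquitin, differed by -0.96, and Rps26 by -2.17. Rps25 was higher by 0.82, which came from cell 43: it had 24.9, 4.07, 1.01 and 1.08 CPM in cells 43 to 46, and without cell 43 the difference was 0.02. Its copy Gm6988, shown above, holds more reads than Rps25 itself.

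The large subunit had 22 of 41 members lower in C1qb-high cells, where 37.3% of all genes were lower, with a median of -1.04. Rpl26 had 0.233, 38.7, 32.3 and 0 CPM in cells 43 to 46, against 4.85 to 185 CPM in the remaining cells. Cells 43 and 46 lay below every remaining cell and the other two within their range, for a difference of -2.98. Rpl3, which lies near the peptide-joining centre, had 57.3, 1.16, 0.202 and 212 CPM in cells 43 to 46, against a median of 180 CPM in the remaining cells, a difference of -2.92. Rpl3 was near its usual level in cell 46 and near 0 in cells 44 and 45, and the difference ran from -4.25 without cell 46 to -1.76 without cell 45.

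Rpl22 had 0.465, 0, 0.202 and 10.8 CPM in cells 43 to 46, against a median of 15.6 CPM in the remaining cells, a difference of -2.73. Rpl7a had 0, 0, 0 and 14 CPM, against a median of 12.9 CPM, a difference of -2.48. Cell 46 was the one cell of the class with a usual level of Rpl22 and Rpl7a. Rpl7a is also the member with the most pseudogene copies. Rpl10a, another large subunit protein, had 17.5, 15.1, 13.9 and 71.5 CPM, and its difference of 0.40 became -0.13 without cell 46.

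The stalk genes had a median difference of -0.80 in C1qb-high and 0.58 in Ibsp-high cells, against -0.91 and 0.48 over all members. Rplp0, the base of the stalk, was at 52.1 to 164 CPM in C1qb-high cells, a median of 253 CPM in Ibsp-high, 163 CPM in Otos-high and 158 CPM in remaining cells. Its differences were -0.80 in C1qb-high, 0.58 in Ibsp-high and 0.18 in Otos-high cells. Rplp1 was the 1 stalk gene of 3 past the size rule, with -1.13 in C1qb-high cells, and Rplp2 differed by -0.13 there.

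In Ibsp-high cells the 5 higher members were Rpl12, Rps4l, Rpl30, Rps15a and Rps4x. Rpl12, a large subunit protein at the foot of the stalk, ran from 0 over a median of 94.4 CPM to 214 CPM in Ibsp-high cells and from 0 over 28.4 CPM to 142 CPM in the remaining cells, a difference of 1.69. Both classes held cells near 0: Rpl12 reached 1 CPM in 10 of 12 Ibsp-high and in 15 of 21 remaining cells. Rpl30 ran from 0.513 over 9.27 to 74.7 CPM against 0 over 2.10 to 180 CPM, a difference of 1.47, with the overall highest value in remaining cell 34. Rps15a ran from 1.21 over 7.88 to 65.8 CPM against 0.323 over 3.11 to 24 CPM, a difference of 1.12. For Rps15a and Rpl30 the pseudogene rows together exceeded the member.

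Rps4x, an X-linked small subunit gene, ran from 6.67 over 26.9 to 53.8 CPM in Ibsp-high cells and from 0 over 13.4 to 49.5 CPM in the remaining cells, a difference of 1.04. The members lowest against the others in Ibsp-high cells were Rps19bp1 (-0.61), Rps27 (-0.34), Rps26 (-0.32) and Rpl10 (-0.20). None of the 4 reached the size rule. Ranges overlapped between Ibsp-high and remaining cells for each member named here.

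In Otos-high cells Rpl7l1 was the 1 higher member, described below. Next came Rpl31 (0.98), Rpl6 (0.89) and Rpl30 (0.82), all of the large subunit. Rpl31 was low throughout, with a median of 2.39 CPM in Otos-high and 0.162 CPM in remaining cells. Among the lowest were Rpl3 (-0.78), Rpl5 (-0.73) and Rps2 (-0.60). Rpl5, which carries the 5S RNA to the large subunit, ran from 0.194 over 14.9 to 73.7 CPM in Otos-high cells and from 0.170 over 28.6 to 193 CPM in the remaining cells.

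The non-canonical members were mixed. As counted, Rpl32l, Rpl37rt and Rpl22l1 moved with the set. Their Spearman's rho with the sum of the other members was 0.79, 0.64 and 0.56 over the 46 cells. It was 0.08 for Rpl7l1, 0.15 for Rps4l and 0.32 for Rps19bp1. That sum includes Rpl32, Rpl37 and Rpl22. No transcript was matched for Rpl32l, Rpl37rt and Rps4l, so their shared stretches were not measured, and 15.8% of the coding stretches of Rpl22l1 were unique. The part of reads shared with related genes in these values was not tested. Rpl7l1, a relative of Rpl7 that takes part in ribosome assembly, was as abundant as the top canonical members, with a mean of 124 CPM. It had 163, 220, 37.2 and 266 CPM in C1qb-high cells 43 to 46. In Otos-high cells it ran from 0.771 over 158 to 184 CPM, in Ibsp-high cells from 0.780 over 66.1 to 349 CPM, and in the remaining cells from 0 over 119 to 372 CPM. It reached 1 CPM in 15 of 21 remaining cells, and where present it lay in the same range as elsewhere. The difference was 2.26 in C1qb-high and 1.495 in Otos-high cells, and by medians over cells no member was higher in C1qb-high cells. With 78.1% unique coding sequence Rpl7l1 is among the members least shared with copies.

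Rps4l, a gene related to Rps4x, was on in few cells. It reached 1 CPM in 10 of 46 cells: 5 Ibsp-high, 1 Otos-high, 1 C1qb-high and 3 remaining. It stood at 270 CPM in remaining cell 38, at 151 CPM in Ibsp-high cell 7 and at 105 CPM in C1qb-high cell 46, with a median of 0 over all cells. Its difference in Ibsp-high cells was 1.68 by means and -0.09 by medians. In C1qb-high cells it was 0.73, and -0.93 without cell 46.

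Rps19bp1, which encodes a regulator of the deacetylase SIRT1 that binds Rps19 and is not a ribosomal protein, reached 1 CPM in 22 of 46 cells. It was at 167 CPM in Ibsp-high cell 8 and at 106 CPM in remaining cell 17, with a median of 0.253 CPM. Rpl22l1, the paralog of Rpl22, had a mean of 32.6 CPM and differed by -1.57 in C1qb-high cells, so both genes of the pair were lower there. Rpl36al, a copy of Rpl36a, had a mean of 71.1 CPM against 6.78 CPM for Rpl36a. Rps27l (a relative of Rps27), Rpl32l and Rpl37rt had counted reads in all 46 cells, with means of 47.9, 24.1 and 15.3 CPM. Rpl3l, the striated muscle form of Rpl3, had a mean of 0.00439 CPM, and the testis forms Rpl10l and Rpl39l were listed at 0 in all cells.

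**Figure D5:**
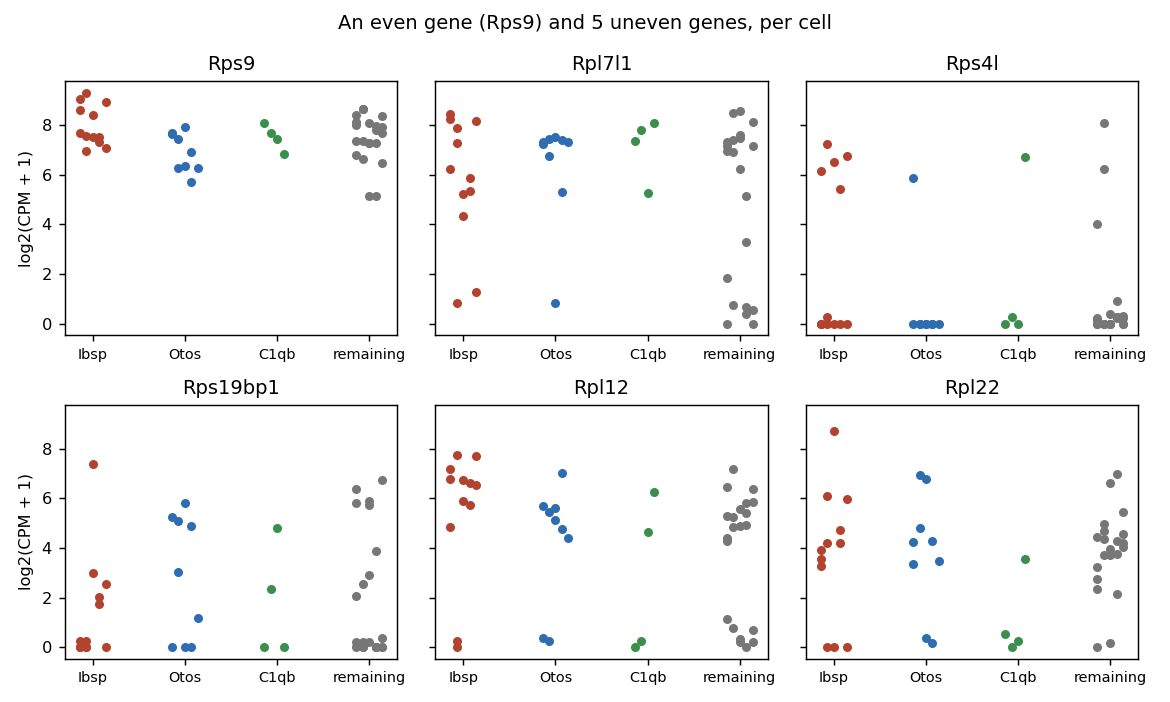
log2(CPM + 1) per cell of Rps9, which is present in all 46 cells, and of 5 uneven members, by marker class. Points are cells: Rpl7l1, Rpl12 and Rpl22 have a high group of cells and a group near 0, and Rps4l and Rps19bp1 are near 0 in most cells.

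Unevenness was measured after taking away each cell's and each gene's median on the log2 scale. Of 3818 values of the 83 members, 160 lay more than 3 units away, and 33 members had none. Rps19bp1 and Rpl12 had 13 such cells each, Rpl7l1 11, Rps4l 9 and Rpl22 8. For Rps19bp1 and Rps4l all of them lay above, and for Rpl12 all lay below. With medians of 0.253 and 0 CPM, Rps19bp1 and Rps4l had little room to lie below, so their direction follows from the floor. Remaining cells 35 and 18 held the most outlying members, 11 and 10. Single high values among canonical members were 180 CPM of Rpl30 in cell 34, 54.9 CPM of Rpl17 in cell 35, 65.8 CPM of Rps15a in cell 10, 32.5 CPM of Rpl31 in cell 26 and 440 CPM of Rps24 in cell 35. Rpl17, Rpl30 and Rps15a each have a pseudogene row above the member, so these values may differ under another treatment of shared reads, which was not tested.

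The members moved together over the cells. The median Spearman's rho of a member with the sum of the other members was 0.61 over 46 cells (83 members, 5th to 95th percentile 0.29 to 0.79). For 4032 other genes at 1 CPM or more in at least 50% of cells, the median rho with the member share was 0.05 (-0.25 to 0.42). The 79 members that passed this stricter filter had a median of 0.62. These correlations share library and denominator, and the part of reads shared between copies was not tested. The rho was 0.83 for Rpl41, 0.82 for Rpl23a, 0.82 for Rpl32 and 0.79 for Rps18, and at the other end 0.08 for Rpl7l1, 0.15 for Rps4l, 0.25 for Rpl5 and 0.28 for Rps25. The median was 0.64 in the small subunit, 0.61 in the large subunit, 0.59 in the stalk and 0.40 in the non-canonical members.

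The genes outside the set whose pattern was most like the summed share were Gm8624 (rho 0.76), LOC102634709 (0.75), Fam228a (0.73), Gm4604 (0.73), Tlcd1 (0.72), Atp5e (0.72), Ndufa3 (0.72), Gm6548 (0.71), Gm5148 (0.70) and Gm8942 (0.70). Of these 10, 4 shared a 50-base stretch with a member or overlapped one (Tlcd1 with Rpl23a, Gm8624 and Gm5148 with Rps23, Gm8942 with Rps24), as did 12 of the top 20, against 1.74% of the 4032 genes. LOC102634709, Gm4604 and Gm6548 had no such match but are also annotated as pseudogenes. Sharing was looked up by symbol in GENCODE M21, so a copy without the same symbol there could not be found. Atp5e and Ndufa3 encode small subunits of the mitochondrial ATP synthase and of complex I. Eef1a1, the main elongation factor, was at 0.65. The genes most opposed were Cyfip1 (-0.54), Serinc3 (-0.53), Prkcd (-0.51), Mapre2 (-0.51) and Zdhhc20 (-0.49).

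Other genes of the translation machinery were counted in lists. The counts that follow stand beside shares over all 8739 genes of 22.7% higher and 17.8% lower in Ibsp-high, 19.5% and 19.7% in Otos-high, and 24.6% and 37.3% in C1qb-high cells. Of 19 translation factors and other genes with oligopyrimidine mRNAs, 9 were lower and 2 higher in C1qb-high cells, 7 higher and 1 lower in Ibsp-high cells, and 3 higher and 1 lower in Otos-high cells. Their median in C1qb-high cells, -0.90, lay near that of the ribosomal protein genes. The elongation factor genes Eef1d (-3.82), Eef1g (-2.93) and Eef2 (-2.51) were lower there: Eef2 had a median of 71.2 CPM in C1qb-high and 376 CPM in remaining cells. Eif3h, an initiation factor subunit, was 2.58 higher in Otos-high cells.

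Of 19 ribosome assembly genes past the filter, 8 were higher and 2 lower in Ibsp-high, 1 and 4 in Otos-high, and 4 and 6 in C1qb-high cells. Of 74 genes of the mitochondrial ribosome, 27 were higher and 5 lower in Ibsp-high, 21 and 7 in Otos-high, and 18 and 26 in C1qb-high cells, near the shares of 24.6% and 37.3% over all genes. Their median there was -0.09, against -0.91 for the cytoplasmic ribosomal protein genes and -0.39 for all genes. Mrps6, of the small mitochondrial subunit, had a median of 419 CPM in Otos-high and 202 CPM in remaining cells but 0.635 CPM in Ibsp-high and 0.985 CPM in C1qb-high cells.

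Of 9 genes that control translation, 5 were higher and 0 lower in Ibsp-high cells (22.7% and 17.8% of all genes), 1 and 1 in Otos-high (19.5% and 19.7%) and 3 and 4 in C1qb-high cells (24.6% and 37.3%). Eif4ebp1 and Eif4ebp2, whose products hold back cap-dependent initiation, were 2.96 and 3.98 higher in C1qb-high cells, with medians of 43.2 and 55.2 CPM against 0 and 0.162 CPM in the remaining cells. Myc, a driver of ribosome production, was 2.68 lower there and 2.61 lower in Otos-high cells. Its median was 99.8 CPM in Ibsp-high, 0.683 CPM in remaining, 0.262 CPM in Otos-high and 0.213 CPM in C1qb-high cells. Outside Ibsp-high cells the medians were thus near 0, and both lower values came from the remaining cells that held more Myc. Of 15 genes of the secretory route at the ribosome, 5 were lower and 0 higher in C1qb-high cells (37.3% and 24.6% of all genes), 2 higher and 0 lower in Ibsp-high (22.7% and 17.8%) and 4 higher and 1 lower in Otos-high cells (19.5% and 19.7%). The count lower in C1qb-high cells and the count higher in Ibsp-high cells were not above those shares. Srpr, the signal recognition particle receptor, had a median of 320 CPM in Ibsp-high, 91.3 CPM in remaining and 8.54 CPM in C1qb-high cells.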

How the data were processed

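Libraries of 46 picked cells were made with the SMART-Seq v4 and ThruPLEX kits, per the labels' protocols. The submitters' processing notes name bcl2fastq 2, STAR 2.7.3a and the builds GRCm38 and mm10. Not given in the sources used here are the counting program, its annotation, its use of strand and its treatment of multiply matching reads. The deposited values are CPM, named so by the authors in the file headers. Dividing each cell's values by the worth of 1 read gave whole reads for 100% of those above 0, within 0.01 read. A count test on them was not run, because there is 1 group and 1 sample.

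Members and lists were chosen with earlier results of these data known. Differences are of mean log2(CPM + 1), with a pseudocount of 1, genes at 1 CPM or more in 20% of cells and a size of 1. Named members are the non-canonical ones, the 4 highest and 4 lowest per class against the median member, those most often beyond 3 units, the 4 highest and lowest per kb, and fixed special cases. Other members named (Rps18, Rps24, Rpl7, Rpl13a, Rpl14, Rpl17, Rpl23a, Rpl32, Rpl36a) were chosen after their values were seen. Values of 2 members are not reported here and not drawn, though they enter sums and counts. Shared 50-base stretches (100 as an alternative), the pseudogene rows and alignments, and the start motifs (runs of 7, within 25 bases each side) were also chosen after seeing the data. For shared stretches the principal transcript with the longest coding sequence, then the shortest transcript, was used, and 85 members matched. Each library is 1 cell, so there are no barcodes to share, and no doublet caller was run. Calculations used Python 3.11.15, pandas 2.3.3, numpy 2.4.6, scipy 1.17.1 and Biopython 1.88, and the differences were tested on simulated data. Alternatives changed the pseudocount, filter, denominator, thresholds, depth, members and cells.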

Additional observations from a re-analysis of the deposited data

Results flagged for a closer look

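Of 84 gene and class values screened in the classes of 4 and 9 cells, 12 had 1 cell apart from the others, with a gap above 0.829 of the range for 4 cells or 0.493 for 9 cells. Chance gives about 1 in 20 for groups not chosen by their values. That does not apply here, because the genes screened are the named members, some of them chosen for uneven values, so the number of such cells is a description. In C1qb-high cells all 5 were cell 46, on the log2(CPM + 1) scale: Rps4l at 105 CPM, Rpl10a at 71.5 CPM, Rpl22 at 10.8 CPM and Rpl7a at 14 CPM lay above the other 3 cells, and Rps4x at 3.67 CPM lay below them. In Otos-high cells Rpl7l1 stood at 0.771 CPM in cell 25, Rpl36al at 0.348 CPM in cell 24, Rpl22l1 at 0.542 CPM and Rpl3 at 0.542 CPM in cell 32, and Rpl5 at 0.194 CPM in cell 28, each below the other 8 cells. Rps4l stood at 56.8 CPM in cell 28 and Rpl21 at 0.734 CPM in cell 31, each above the others.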

How the results depend on the processing

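The differences in summed share kept the order of the classes in every alternative tried, but the Otos-high difference lay on either side of 0, from -0.15 to 0.20. The C1qb-high difference ran from -1.23 to -0.64 and the Ibsp-high one from 0.25 to 0.54. Shares of the listed genes without mitochondrial genes and the top 50 other genes had medians of 0.605% in Otos-high and 0.538% in remaining cells. With the 10 members of more than 50% unique coding sequence alone, the median shares were 0.122% in Ibsp-high, 0.0796% in Otos-high, 0.0482% in C1qb-high and 0.0857% in remaining cells, since fewer genes were summed. Counts past the size rule moved more. A pseudocount of 10 gave 1 higher member in Ibsp-high, 0 higher in Otos-high and 17 lower in C1qb-high cells. Medians over cells gave 2 higher in Otos-high and 0 higher in C1qb-high cells. Scaling cells to the same member sum gave 3, 2 and 6 higher in Ibsp-high, Otos-high and C1qb-high cells and 15 lower in C1qb-high cells. The share without mitochondrial and top genes gave 4 higher in Otos-high cells, and reads thinned to 2522853 per cell gave 2. A size of at least 2 left 0 higher in Ibsp-high and Otos-high cells and 10 lower in C1qb-high cells. Leaving out each C1qb-high cell gave 2 to 3 higher and 30 to 50 lower. For single genes, 246 of 248 values in 24 comparisons were counted as kept, which is a loose rule. A value was kept if it moved by less than the pooled SD over cells, whether or not it still passed the size of 1. Rpl7l1 in C1qb-high cells was thus counted as kept, though by medians it no longer passed that size. A value under the size of 1 that changed sign was not counted as reversed. Such values include Rps4l and Rpl10a in C1qb-high cells, at -0.93 and -0.13 without cell 46. Rps4l in Ibsp-high cells turned to -0.0874 by medians, and Rpl7a in C1qb-high cells moved to -0.85 with a pseudocount of 10. The cause was not tested. Cells picked for fluorescence from unnamed animals, 4 to 21 per class, limit every comparison. At the depth of these libraries 1 read was under 1 CPM in every cell. The share moved with depth within classes, in opposite directions in Ibsp-high and remaining cells, and the part of depth was not tested. No paired analysis was possible because the labels give 1 group and no pairing.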
